A study of Mus musculus with 6 samples.

Results

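Small nucleolar RNAs and small Cajal body RNAs were examined in mouse LSK cells after deletion of Ctcf. Every gene whose symbol starts with Snord, Snora or Scarna was taken, which gave 78 of the 22180 genes measured: 47 C/D box RNAs (Snord), 26 H/ACA box RNAs (Snora) and 5 Cajal body RNAs (Scarna). Each gene was read from its brightest probe set with a single symbol. LSK cells are the lineage-negative, Sca-1-positive, c-Kit-high fraction of bone marrow that holds the blood stem cells and the earliest progenitors. The arrays were 3 of LSK cells from tamoxifen-inducible Ctcf conditional knockout mice (Ctcf cKO) and 3 of LSK cells labelled WT. All donors were male mice aged 8 weeks, and the treatment protocol gives tamoxifen at 2 mg a day for 3 days with sorting 24 hours after the last injection. The design text also names CreER mice, and neither the labels nor that text say whether the WT animals carried CreER or which promoter drove it. CTCF, the product of Ctcf, is a DNA-binding zinc finger protein of insulators and chromatin loop anchors.

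Small nucleolar RNAs are short, stable non-coding RNAs that work as guides for chemical modification of other RNAs. C/D box RNAs carry fibrillarin to ribosomal RNA for methylation of the ribose, and H/ACA box RNAs carry dyskerin for conversion of uridine to pseudouridine, while Cajal body RNAs do the same for spliceosomal RNAs. In mammals most of them are cut from introns of host genes, many of which encode ribosomal proteins, translation factors or non-coding transcripts of the Snhg family. A few, such as U3, U8 and U13, are transcribed from promoters of their own.

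By RefSeq gene spans, 74 of the 78 RNAs lay inside a longer gene, and these containing genes numbered 66. Snord13, Snord89, Snord118 and Scarna2 lay in none. The start regions of 4 host genes are shown, each holding several of the small RNAs and at least 1 C/D box RNA whose groups did not overlap. The host 2410002F23Rik, with Snord88a and Snord88c, meets this description too but is not shown. The sequences are from RefSeq on GRCm38.p6, 5′ to 3′ on the strand of the gene, with 40 bases before the start in lower case and the first 20 transcribed bases in capitals. Rps3a1 holds Snord73a and Snord73b (chr3:86142649-86142708, minus strand), Ncl holds Snora75 and Snord82 (chr1:86359436-86359495, minus strand), Gnl3 holds Snord19 and Snord69 (chr14:31019112-31019171, minus strand), and 2410006H16Rik holds Snord49a, Snord49b and Snord65 (chr11:62602837-62602896, plus strand).
Rps3a1: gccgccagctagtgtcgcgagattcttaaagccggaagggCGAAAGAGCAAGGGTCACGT
Ncl: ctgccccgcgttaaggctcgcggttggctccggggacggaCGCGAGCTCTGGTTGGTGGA
Gnl3: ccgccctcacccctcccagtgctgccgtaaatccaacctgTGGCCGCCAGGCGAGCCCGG
2410006H16Rik: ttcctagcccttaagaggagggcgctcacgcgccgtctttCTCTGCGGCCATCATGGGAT
Start windows of 250 bases before to 50 bases after the start were given for 50 host genes, 54 windows in all. The letters CCA, any 2 bases, AG, any 2 bases and GGC, a core of the motif that CTCF binds, were in 1 of these 54 windows on either strand (1.85%), that of Zbed3, against 797 of 32851 windows of all genes (2.43%). A start at C followed by 4 pyrimidines, the first letters of the tract found at the start of translation-machinery mRNAs, was in 4 of the 54 (7.41%), those of 1110038B12Rik, Gas5, Gm36220 and Ipo7, against 823 of 32851 (2.51%). None of these 4 is a ribosomal protein or translation factor gene. The count takes the annotated start to the base, so a tract that begins some bases away from it is missed.

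The arrays were alike in overall level, with medians over all probe sets between 5.99 and 6.07 on the log2 scale. Ctcf was at log2 7.58, 7.78 and 7.86 on the Ctcf cKO arrays, against 8.35, 8.59 and 8.73 on the WT arrays. The groups did not overlap, and the level in Ctcf cKO cells was 56.7% of WT (adjusted p = 0.104, limma). The 9 measured of 10 LSK markers averaged log2 9.42 to 9.52 in Ctcf cKO and 9.42 to 9.64 in WT, with 7 of 9 negative. The groups did not overlap for Kit, lower in Ctcf cKO (-0.22), and for Gata2 (0.34) and Slamf1 (0.33), both higher. For Kit the nearest arrays were almost equal, at 10.21 in Ctcf cKO and 10.22 in WT. Flt3 differed by -0.42 with overlap. Of all genes 5.32% lay lower and 7.96% higher in Ctcf cKO without overlap. Markers of B and plasma cells were at log2 8.69, 8.74 and 8.07 in Ctcf cKO and 9.72, 9.23 and 8.59 in WT (mean of the 9 measured of 10), and all 9 had a negative difference. The 8 mature neutrophil markers were at 6.99, 6.77 and 6.23 in Ctcf cKO and 8.31, 6.56 and 7.58 in WT, with 7 of 8 negative. Of these only Ngp had groups without overlap (-2.44). The 5 megakaryocyte markers were at 7.38 to 7.78 in Ctcf cKO and 7.26 to 7.51 in WT, with 4 of 5 positive and Gp9 and Vwf without overlap. The 6 T and NK cell markers had 4 negative, with Nkg7 higher without overlap (0.68). Of 8 erythroid markers 4 were measured and 3 were positive, with Car2 higher without overlap (0.33). The 5 monocyte and macrophage markers had 3 negative, with Cx3cr1 lower without overlap (-0.15). These arrays have no true zero, so no marker can be called absent. The part of these other cells in the results below was not tested, and in sorted bulk cells fewer cells of a type and less RNA per cell cannot be told apart.

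C/D box RNAs were mostly at lower levels in Ctcf cKO than in WT cells, by small amounts. Of the 47, 40 had a negative difference (85.1%), against 45.3% of all genes. Their median log2 difference, Ctcf cKO minus WT, was -0.21 (quartiles -0.32 and -0.088), against 0.018 for all genes (quartiles -0.088 and 0.13). The groups did not overlap for 8 of the 47 (17.0%), all 8 lower in Ctcf cKO, while 5.32% of all genes lay lower without overlap. Only 1, Snord58b, passed an adjusted p under 0.05 (limma, Benjamini-Hochberg over all genes), against 0.0451% of all genes called lower, 0.0271% called higher and 0.0721% called in either direction. At an unadjusted p under 0.05, 8 were lower and 0 higher, against 3.08% and 5.03% of all genes. The SE of a difference was 0.11 to 0.53 (median 0.16), so for most of these RNAs the difference is not distinguishable from 0 on its own.

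**Figure D1:**
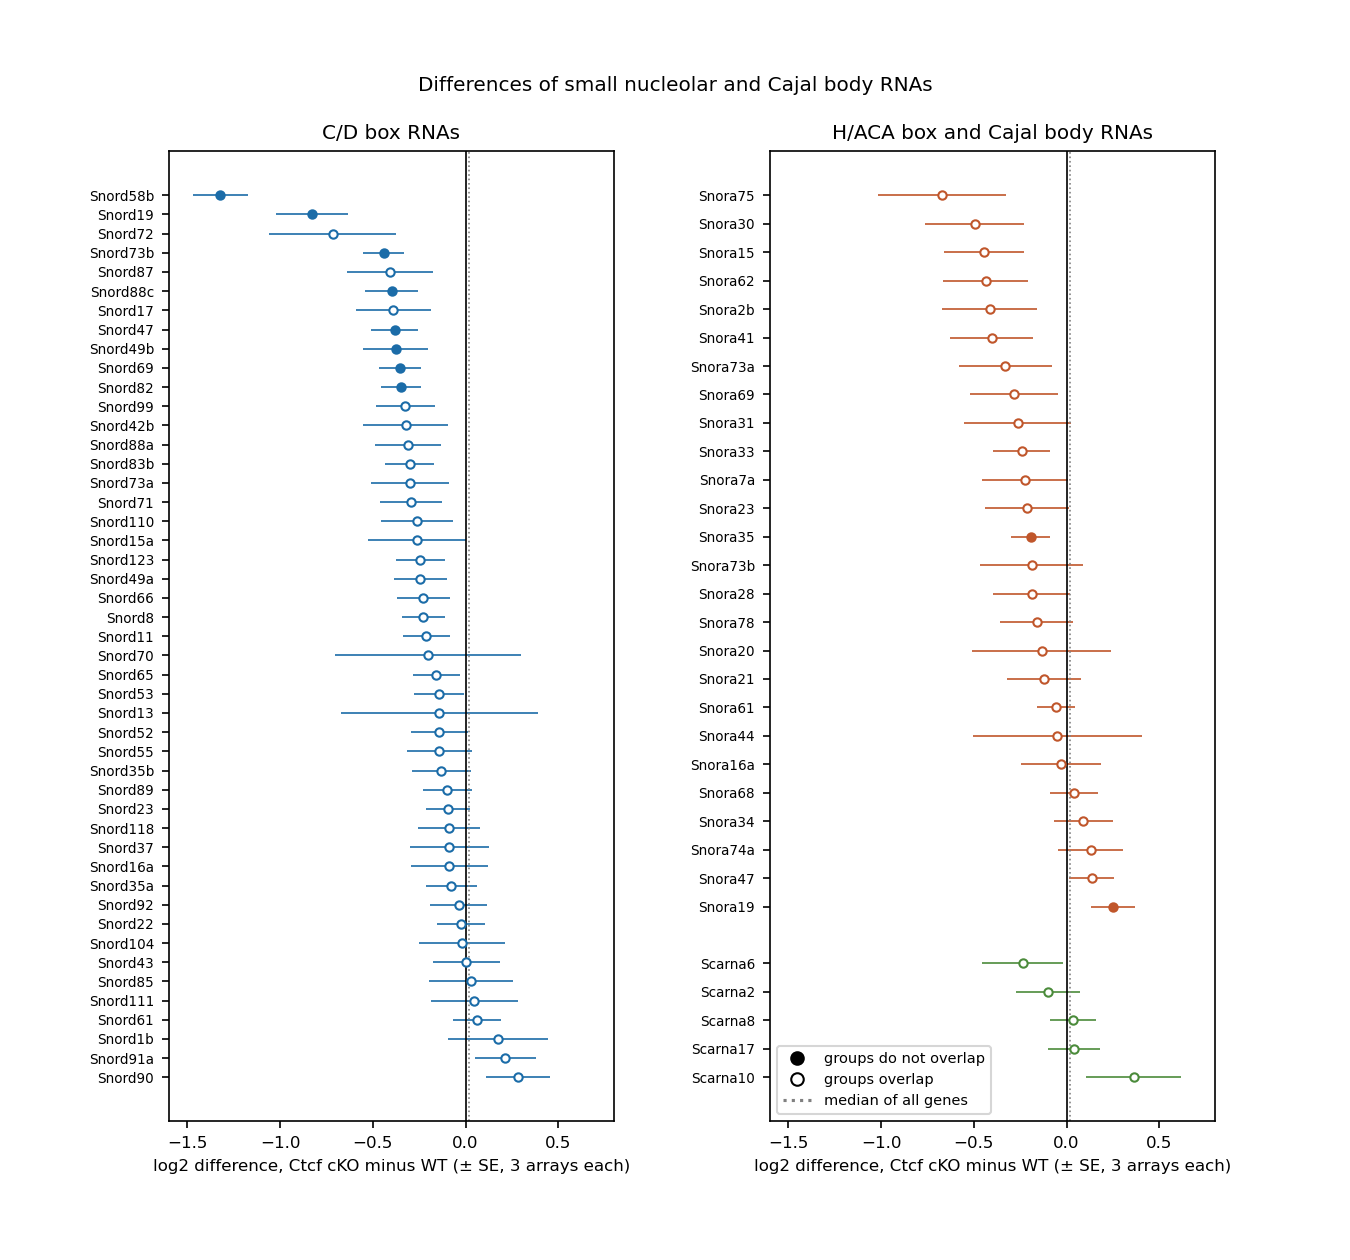
Log2 difference (Ctcf cKO minus WT, horizontal axis) of each of the 78 small RNAs with its SE, 3 arrays a group, with C/D box RNAs on the left and H/ACA box and Cajal body RNAs on the right. Filled points mark RNAs whose groups did not overlap, and 40 of 47 C/D box and 21 of 26 H/ACA box points lie left of 0.

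Snord58b, in human a guide for methylation of 28S ribosomal RNA, lies in the gene of the ribosomal protein Rpl17. Its log2 level was 4.03, 4.43 and 4.05 in Ctcf cKO and 5.31, 5.67 and 5.50 in WT. All 3 Ctcf cKO arrays lay below all 3 WT arrays, by more than the spread within either group. It fell to 40.02% of the WT level, a log2 difference of -1.32 ± 0.15 (SE, n = 3 each, adjusted p = 0.0285, limma). Both groups are below the median of all genes' mean levels, 6.29, where the array measures least reliably. With each array left out in turn its difference stayed between -1.45 and -1.23, but it passed in 1 of the 6 fits, the fit without Ctcf cKO replicate 2 (adjusted p 0.0389 to 0.132, limma). Its host Rpl17 was at 6.38, 5.92 and 5.93 in Ctcf cKO and 6.35, 6.87 and 6.76 in WT, where only Ctcf cKO replicate 1 and WT replicate 1 overlap (difference -0.58 ± 0.18, SE, adjusted p = 0.446, limma).

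The gene of the nucleolar GTPase nucleostemin, Gnl3, holds Snord19 and Snord69. Snord19 was at log2 4.39, 4.998 and 5.07 in Ctcf cKO and 5.47, 5.88 and 5.60 in WT. It too is a dim probe set, and Ctcf cKO replicate 1 was well below the other arrays (difference -0.83 ± 0.19, SE, adjusted p = 0.289, limma). Snord69, measured at a higher level, was at 8.96, 8.84 and 8.94 in Ctcf cKO and 9.23, 9.43 and 9.14 in WT. The Ctcf cKO arrays lay close together under all WT arrays, with a difference of -0.35 ± 0.11 (SE, adjusted p = 0.489, limma). Gnl3 itself was at 8.92, 9.54 and 9.29 in Ctcf cKO and 9.26, 9.42 and 9.72 in WT, and these groups overlapped.

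Snord73b, from an intron of the ribosomal protein gene Rps3a1, was at log2 9.98, 9.90 and 10.04 in Ctcf cKO and 10.55, 10.34 and 10.35 in WT. This is a well-measured RNA whose groups are tight and apart, with a difference of -0.44 ± 0.11 (SE, n = 3 each) and an adjusted p of 0.339 (limma). Its neighbour Snord73a, at 5.41, 6.03 and 5.44 in Ctcf cKO and 5.69, 6.30 and 5.79 in WT, had overlapping groups and a difference of -0.30. Snord82, an RNA of the nucleolin gene Ncl, was at 11.41, 11.44 and 11.50 in Ctcf cKO and 11.79, 11.93 and 11.69 in WT. It is among the brightest members, and its groups were again tight and apart (difference -0.35 ± 0.11, SE, adjusted p = 0.458, limma).

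Snord47, in human a guide for 28S ribosomal RNA, was at log2 10.11, 9.79 and 10.15 in Ctcf cKO and 10.51, 10.38 and 10.31 in WT. Snord49b, of the non-coding host 2410006H16Rik, was at 10.68, 11.13 and 11.20 in Ctcf cKO and 11.23, 11.67 and 11.24 in WT. Both differ by -0.38, but the groups of Snord49b are only just apart, with its highest Ctcf cKO array and lowest WT array nearly equal. Snord88c, of 2410002F23Rik, was at 7.57, 7.20 and 7.68 in Ctcf cKO and 7.99, 7.80 and 7.86 in WT, a difference of -0.40. The adjusted p values of these 3 RNAs were 0.508, 0.633 and 0.541 (limma), so none of them passed.

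**Figure D2:**
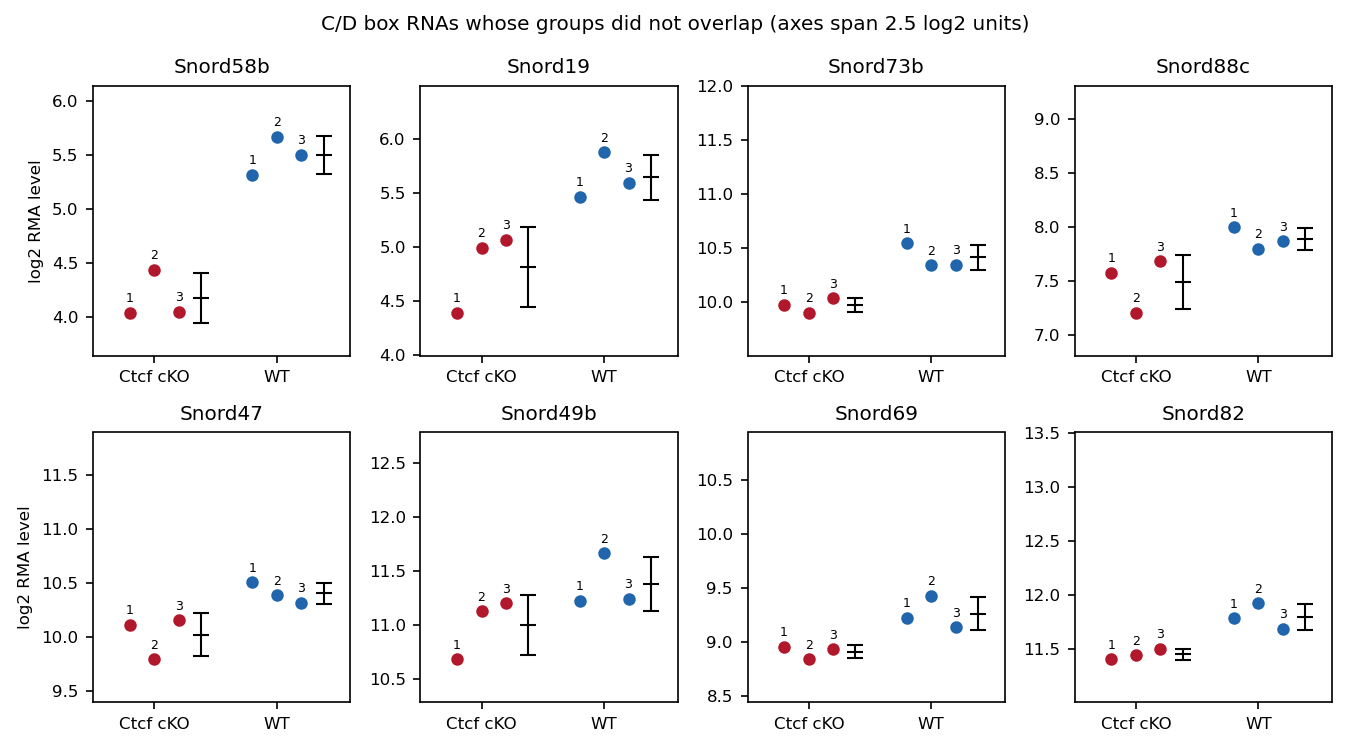
Log2 level on each array (vertical axis, each panel spanning 2.5 log2 units) of the 8 C/D box RNAs whose groups did not overlap, with the Ctcf cKO arrays left of the WT arrays and mean ± SD beside each group. The numbers are replicate numbers, and every Ctcf cKO point lies below every WT point, by the widest margin for Snord58b.

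The other 39 C/D box RNAs had overlapping groups, with differences from -0.72 (Snord72, SE 0.34) to 0.28 (Snord90, SE 0.17). Those that act in cleavage of the ribosomal RNA precursor, or beside it, rather than as ordinary methylation guides were near 0 or poorly determined. Snord118 (U8, needed in Xenopus for maturation of the large subunit RNAs) was at log2 7.20, 7.34 and 7.19 in Ctcf cKO and 7.70, 7.27 and 7.03 in WT, a difference of -0.089 ± 0.17 (SE). Snord22 (U22, which acts in Xenopus in small subunit RNA processing) differed by -0.026 ± 0.13. Snord13 (U13, which in human helps acetylation of small subunit RNA) was at 7.78, 6.71 and 7.05 in Ctcf cKO and 8.70, 6.41 and 6.86 in WT. The spread of Snord13 came with replicate 1 of both groups standing high, and its difference of -0.14 has an SE of 0.53. The brightest C/D box probe set, Snord89, differed by -0.098 ± 0.13 (SE). The largest positive differences, Snord90 (0.28), Snord91a (0.21) and Snord1b (0.17), were all of probe sets below the median of all genes' mean levels.

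Split by signal, the C/D box RNAs leaned the same way in both parts. Of the 33 above the median of all genes' mean levels, 31 had a negative difference (93.9%, median -0.23), against 39.6% of all genes above it (median 0.040). Of the 14 below it 9 did (64.3%, median -0.15), against 51.1% of all genes below it (median -0.0042), so the dimmer part lies nearer its background. A difference between the brighter and dimmer C/D box RNAs was not tested.

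H/ACA box RNAs leaned the same way, with wider errors. Of the 26, 21 had a negative difference (80.8%) and their median was -0.19 (quartiles -0.32 and -0.051). None passed the adjusted or the unadjusted threshold in either direction (lowest adjusted p 0.637, limma). The groups did not overlap for 1 lower, Snora35, and 1 higher, Snora19, against 5.32% and 7.96% of all genes, so the counts by RNA do not stand above the background here. Snora35, which lies in the serotonin receptor gene Htr2c and is known as a brain-enriched RNA, was at log2 5.75, 5.78 and 5.89 in Ctcf cKO and 6.05, 5.90 and 6.04 in WT. These dim groups were separated by less than the spread within each (difference -0.19 ± 0.10, SE, adjusted p = 0.695, limma). Snora19, of the translation factor gene Eif3a, was at 5.15, 5.30 and 5.18 in Ctcf cKO and 4.81, 5.13 and 4.93 in WT, also barely apart (difference 0.25 ± 0.12, SE, adjusted p = 0.637, limma). Its 2 probe sets hold identical values and count as 1 measurement.

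Snora75 (U23), the other RNA of Ncl, had the largest H/ACA difference, -0.67 ± 0.35 (SE, adjusted p = 0.667, limma). Its levels were log2 7.51, 8.98 and 8.71 in Ctcf cKO and 9.41, 9.06 and 8.74 in WT. The size came from 1 low array, Ctcf cKO replicate 1, with the other Ctcf cKO arrays near the WT ones. Snora33, of the ribosomal protein gene Rps12 and the brightest of the 78, was at 12.84, 12.35 and 12.83 in Ctcf cKO and 13.05, 12.85 and 12.84 in WT. Here the low array was Ctcf cKO replicate 2, and the groups overlapped (difference -0.24 ± 0.15, SE). A dimmer probe set of Snora33 differed by -0.53 ± 0.32 (SE).

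The next brightest H/ACA RNAs were Snora23, of the nuclear import receptor gene Ipo7 (-0.21 ± 0.23, SE), and Snora28, of the translation factor gene Eif5 (-0.19 ± 0.21). Their sign rests on Ctcf cKO replicate 2, without which they differ by 0.041 and 0.018. Snora73a and Snora73b (U17), which in vertebrates act in cleavage of the small subunit RNA precursor rather than as pseudouridine guides, differed by -0.33 ± 0.25 and -0.19 ± 0.28 (SE). They share the host Snhg3.

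Cajal body RNAs showed no common direction. Of the 5, 2 had a negative difference, the median was 0.036, and all 5 had overlapping groups. Scarna6, in the autophagy gene Atg16l1, was at log2 8.69, 9.10 and 8.50 in Ctcf cKO and 9.43, 8.64 and 8.93 in WT (difference -0.24 ± 0.22, SE). Scarna10, in the condensin subunit gene Ncapd2, was at 7.99, 8.94 and 8.07 in Ctcf cKO and 8.09, 7.64 and 8.19 in WT. The positive difference of Scarna10, 0.36 ± 0.26 (SE), came mainly from Ctcf cKO replicate 2 and WT replicate 2. Scarna2 (-0.099), Scarna8 (0.036) and Scarna17 (0.039) were within their SEs of 0 and take either sign when an array is left out.

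The lists were also followed array by array, as the median over members of the level minus the RNA's own mean over the 6 arrays. For C/D box RNAs this was -0.13, -0.12 and -0.075 in Ctcf cKO and 0.16, 0.096 and 0.031 in WT. Each Ctcf cKO array was lower than each WT array. For H/ACA box RNAs it was -0.11, 0.073 and -0.070 in Ctcf cKO and 0.25, 0.024 and 0.041 in WT, so Ctcf cKO replicate 2 lay above 2 of the WT arrays. WT replicate 1 was the highest array for both classes, and it was also the highest for the neutrophil markers (8.31) and for the B and plasma cell markers (9.72). Without it the C/D box median was -0.14 and the H/ACA box median -0.12, and 37 of 47 and 17 of 26 had a negative difference. Both medians are thus smaller without WT replicate 1 than with it, by 1.5 times or more.

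**Figure D3:**
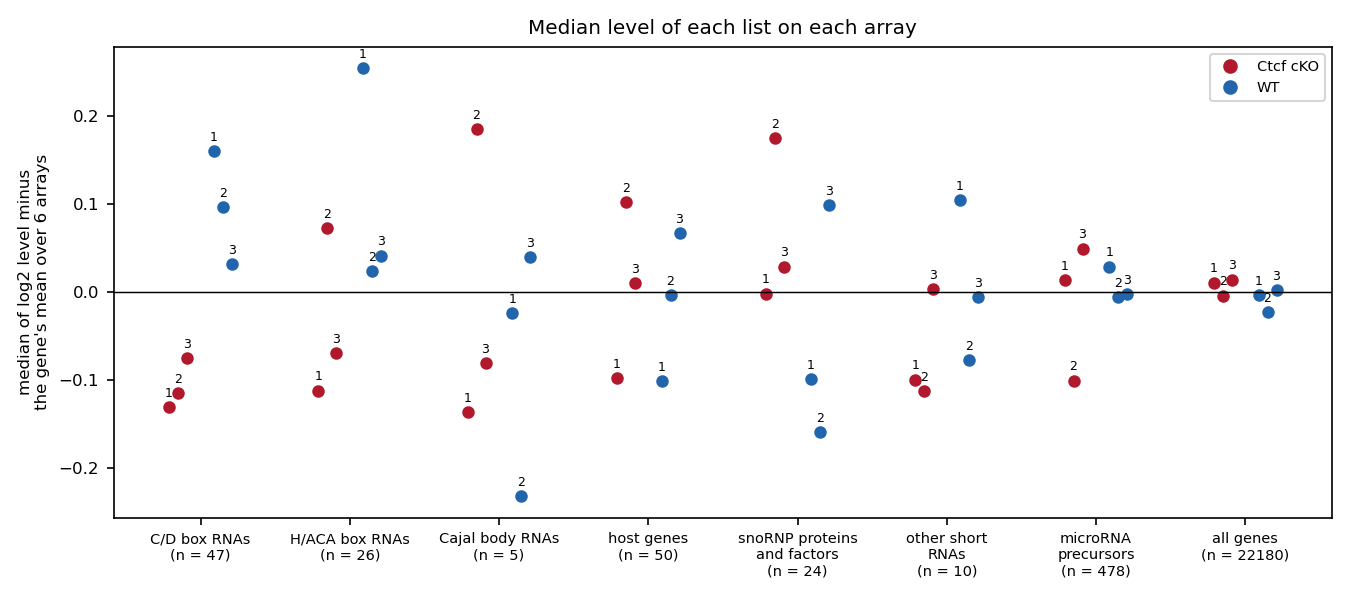
Median over each list of the log2 level minus the gene's own mean over the 6 arrays (vertical axis), on each array, with the Ctcf cKO arrays left of the WT arrays and replicate numbers beside the points. C/D box RNAs are the list whose 3 Ctcf cKO points, -0.13 to -0.075, lie apart from the 3 WT points, 0.031 to 0.16, and WT replicate 1 stands at 0.25 for H/ACA box RNAs.

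Host genes were examined next, since an intronic small RNA and its host share a transcript and a probe set inside an intron also picks up the unspliced host. Of the 66 containing genes 50 were measured. Their median difference was 0.045, with 18 of 50 negative, and this median became -0.011 when arrays were centred on the brighter genes. With an array left out it was also negative without Ctcf cKO replicate 2 (-0.014) and without WT replicate 1 (-0.0082), and it was 0.081 without Ctcf cKO replicate 1 and 0.086 without WT replicate 3. Quantile normalization brought it to 0.0033. Their groups did not overlap for 1 lower, the nucleolar protein gene Nop53 (-0.26), and 1 higher, Rps3a1, 2% of the hosts each way, below the 5.32% and 7.96% of all genes. For 58 small RNAs a single containing gene was measured, 44 genes in all. The RNA had the lower difference of the pair in 48 of 58, in 26 of 32 C/D box and 19 of 23 H/ACA box pairs. In 29 pairs the RNA was negative and the host positive, in 19 both were negative, in 8 both were positive, and in 2 the RNA was positive and the host negative. Across the 58 pairs, which share hosts and are not independent, Pearson's r between the differences was 0.15 and Spearman's rho 0.29.

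Rps3a1 set the Pearson value. Its brighter probe set rose, at log2 11.74, 11.89 and 11.47 in Ctcf cKO against 9.46, 9.69 and 9.97 in WT (difference 1.99 ± 0.16, SE, adjusted p = 0.00672, limma), while Snord73a and Snord73b inside it had negative differences. The other Rps3a1 probe set differed by 0.059 ± 0.15 (SE), and ribosomal protein genes have many near-identical copies, so which transcript the brighter probe set reads is uncertain. Probe set numbers mostly follow the chromosomes here. The dimmer probe set is numbered beside those of Snord73a and Snord73b, but the brighter one near that of Snora47 on chromosome 13. Some other hosts, such as Rpl3, Rpsa and Rpl23a, were also read from probe sets numbered far from those of their RNAs. Such pairs may not compare the same locus. Without Rps3a1, r over the remaining 56 pairs was 0.54 and rho 0.37. Without Snord58b as well, r was 0.41 and rho 0.33 over 55 pairs.

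**Figure D4:**
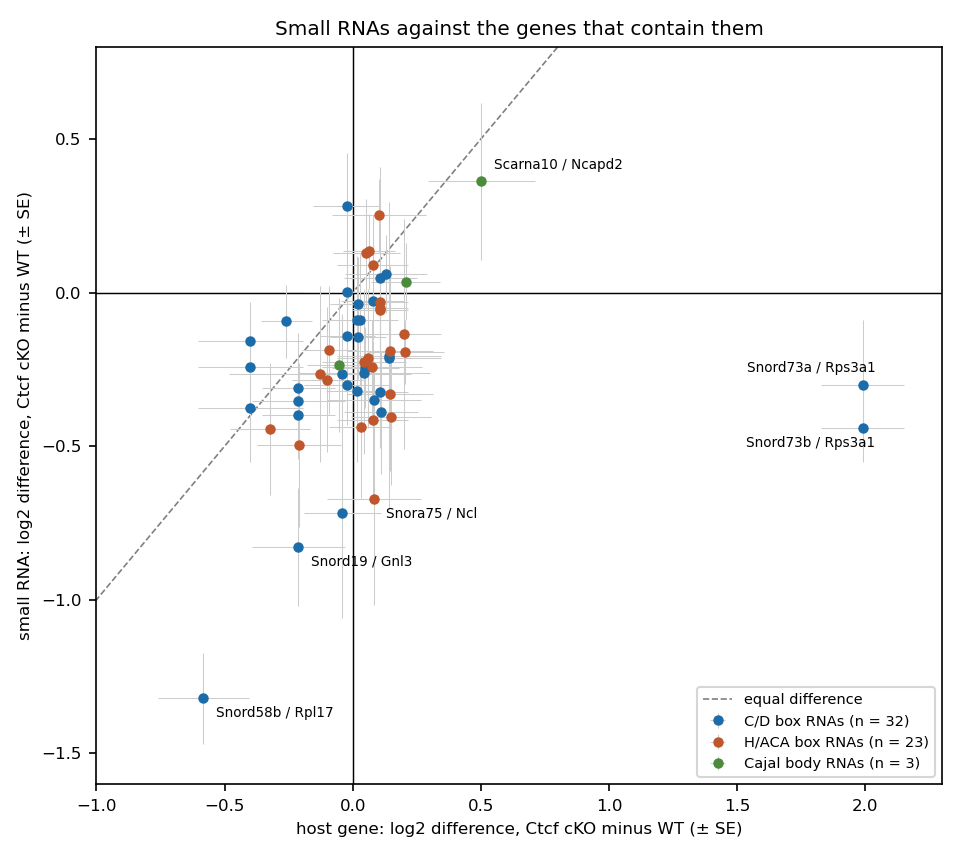
Log2 difference of each small RNA (vertical axis) against that of the gene containing it (horizontal axis), both Ctcf cKO minus WT with SE, for 58 pairs. In 48 of the 58 the point lies below the dashed line of equal difference, and Snord73a and Snord73b stand far to the right with the brighter probe set of their host Rps3a1 at 1.99.

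Measured hosts with several of these RNAs numbered 11, with 25 RNAs between them, and in 9 of the 11 every RNA had a negative difference. Of all 78 RNAs 63 were negative (80.8%), and whether RNAs of a shared host agree beyond that share was not tested. The non-coding gene 2410006H16Rik was at log2 10.94, 10.17 and 10.61 in Ctcf cKO and 11.24, 10.91 and 10.76 in WT, a difference of -0.40 ± 0.20 (SE). Its RNAs Snord49a, Snord49b and Snord65 differed by -0.24, -0.38 and -0.16, so host and RNAs lay to the same side. In Ncl, by contrast, Snora75 and Snord82 were negative while nucleolin mRNA was at 10.35, 10.85 and 10.80 in Ctcf cKO and 10.26, 10.65 and 10.83 in WT, a difference of 0.083 ± 0.18 (SE). The 4 RNAs of Snhg12 ranged from -0.32 to -0.031 with the host at 0.11. The exceptions were Kansl2, a chromatin complex gene whose Snora2b and Snora34 differed by -0.41 and 0.091, and the ribosomal protein gene Rpl3, whose Snord83b and Snord43 differed by -0.30 and 0.0039.

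By kind of host, the 24 RNAs in ribosomal protein or translation genes had a median of -0.23 (21 negative). The 28 in other protein-coding genes had -0.21 (20 negative) and the 16 in non-coding genes -0.099 (13 negative). By class, C/D and H/ACA box medians were -0.24 and -0.23, -0.21 and -0.21, and -0.16 and -0.053 for these 3 kinds. The 6 RNAs with several containing genes had a median of -0.26 (5 negative). The 4 RNAs with no containing gene were all negative, with a median of -0.098. Differences between these kinds were not tested.

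The proteins that bind, build or move these RNAs did not share the direction of the RNAs. Of 26 listed genes 24 were measured (Fbl and Phax were not analysed here), and 22 of the 24 were positive and 2 negative (8.33%). Except for Znhit3 all lie above the median of all genes' mean levels, where 39.6% of all genes were negative (median 0.040). The median difference of the 24 was 0.11, and 0.059 after centring on the brighter genes and 0.060 after a further quantile normalization. With an array left out it ranged from 0.071 (without Ctcf cKO replicate 2) to 0.20 (without WT replicate 3), and it was 0.075 without WT replicate 2. None passed at an adjusted p under 0.05 (lowest 0.518, limma), and 2 of 24 were higher and 0 lower at an unadjusted p under 0.05, where 5.03% and 3.08% of all genes lie. Among the core proteins, the C/D scaffold genes Nop56, Nop58 and Snu13 differed by -0.040, 0.14 and 0.18, and the H/ACA genes Dkc1 (dyskerin), Gar1 and Nhp2 by 0.13, 0.17 and 0.19. Nop10, the small H/ACA protein, was at log2 10.04, 10.11 and 10.06 in Ctcf cKO and 9.82, 9.50 and 9.97 in WT, and its groups did not overlap (0.30 ± 0.13, SE, adjusted p = 0.617, limma). The assembly factors Znhit3 (0.31) and Pih1d1 (0.36) also had groups without overlap on the higher side, where 7.96% of all genes lie. By array the 24 genes were at -0.0022, 0.18 and 0.029 in Ctcf cKO and -0.099, -0.16 and 0.099 in WT, so that the groups overlapped.

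Other short RNAs served for comparison. The 10 measured small nuclear, RNase P-related, telomerase and other short RNAs had a median of -0.053 with 7 negative. Rnu3a (U3), the C/D-type RNA of small subunit processing, differed by -0.0545 ± 0.26 (SE). In this list 3 RNAs lay lower in Ctcf cKO without overlap: Rprl2 (-0.45), Rpph1, the RNA subunit of RNase P (-0.26), and Terc, the telomerase RNA, which has an H/ACA domain (-0.16). This is 30.0% of a list of 10, beside 5.32% of all genes. Terc was at log2 12.77, 12.80 and 12.97 in Ctcf cKO and 12.99, 13.00 and 13.03 in WT, with the nearest arrays of the groups almost equal. The 478 microRNA precursors, also short and often intronic, were centred on 0, with 245 negative and a median of -0.0055. They are a dimmer list, with a median level of log2 5.02 against 7.69 for C/D box RNAs and 6.29 for all genes. Differences of dim probe sets are compressed, so the lists are not compared at like signal.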

How the data were processed

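The deposited values are log2 probe set levels made by the authors from 6 Affymetrix Mouse Gene 2.0 ST arrays. Per the submitters' processing notes the tools were RMA and oligo. RMA equalises the arrays' distributions and compresses differences of dim probe sets. The annotation release is not given in the sources used here. Of 41345 probe sets, 23521 had 1 symbol in GEO's platform annotation, 1814 several and 16010 none here. Only those with 1 symbol were used, and each of the 22180 genes was read from its brightest probe set by the mean of all arrays. No filter on low values was applied. Among the members 3 had more than 1 probe set (Snora33, Snora19, Scarna17), and 46 probe sets naming a member beside other symbols were left out.

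Differences are Ctcf cKO minus WT from limma 3.58.1 in R 4.3.3 (lmFit, eBayes, group as the only term), with Benjamini-Hochberg adjustment over all genes, and the procedure was tested on simulated data. The labels call the arrays biological replicates. Their number limits the precision: the smallest exact permutation p for 3 against 3 arrays is 0.1. The lists and members were chosen with earlier results of these data known. Lists are described by counts and medians, without a test. Named members are those called, those whose groups did not overlap (largest first), every Cajal body RNA, members with several probe sets and the 3 brightest of each class; others named were chosen after their values were seen. Containing genes come from RefSeq spans of GRCm38.p6; strand was not used, although same-strand containment was planned, because the table gives none for these spans, and 6 RNAs with several containing genes were left out of the pairs. The alternatives were eBayes trend and robust settings, array weights, brighter genes only, a further quantile normalization, centring on brighter genes, averaged probe sets, every probe set, a replicate block, other thresholds and each array left out. Counts of negative differences under each were added after seeing the data.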

Additional observations from a re-analysis of the deposited data

How the results depend on the processing

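The median of the C/D box RNAs was negative under all 15 alternatives: it was -0.27 with arrays centred on the brighter genes and -0.24 to -0.14 with an array left out, the smallest being without WT replicate 1. That of the H/ACA box RNAs was negative under all 15 as well, at -0.28 to -0.12 with an array left out. Not all of the 15 could move these medians, since the eBayes settings and the replicate block leave every difference unchanged. Each C/D box RNA has 1 probe set, so averaging or separating probe sets could not change their median either. The count of all genes called depended heavily on the settings, 16 as reported, 25 with eBayes trend and robust settings, 26 at an adjusted p under 0.1, 1799 at an unadjusted p under 0.05, and 0 to 8 with an array left out (0 without Ctcf cKO replicate 1). Of the C/D box RNAs 8 were called at an unadjusted p under 0.05, 0 among brighter genes only, which leaves out Snord58b, and 0 to 1 with an array left out; no H/ACA box RNA was called under any adjusted setting. The median of the other short RNAs was -0.16 to 0.0135 with an array left out. Scarna17 turned negative under quantile normalization (-0.0267), centring (-0.0168) and the mean of its probe sets (-0.00855), and ranged from -0.0674 to 0.15 with an array left out; Scarna8 was -0.0200 after centring and -0.0433 to 0.11. Signs also turned with an array left out for Scarna2 (-0.24 to 0.0384), Snora23 (-0.45 to 0.0411), Snora28 (-0.35 to 0.0182) and Snord89 (-0.19 to 0.00419). Signal limits the 18 of 78 RNAs below the median of all genes' mean levels most. The replicate numbers gave no clear pairing of the samples: correlations of same-numbered deviations were 0.29, 0.016 and -0.14. Those of differently numbered arrays ranged from -0.25 to 0.25. Whether arrays of the groups shared a batch was not tested. With the replicate number as a block 7 genes were called in place of 16. Beyond the settings named, the cause of these changes was not tested.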

Other observations

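The Snord116 cluster, imprinted C/D box RNAs of the Prader-Willi region, falls outside the rule because its 16 probe sets carry several symbols each; all 16 hold identical values and are 1 measurement. Its log2 level was 5.05, 6.49 and 6.92 in Ctcf cKO and 7.13, 7.42 and 6.63 in WT. Ctcf cKO replicate 1 was the lowest array, the groups overlapped, and the difference was -0.90 ± 0.43 (SE, n = 3 each, adjusted p = 0.637, limma).

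The other probe sets that name a small nucleolar or Cajal body RNA beside another gene gave 30 distinct measurements. The classes are pooled here, and some of these probe sets name a host gene such as Rps3 or Nop56, whose RNA they may read. Of the 30, 20 were lower in Ctcf cKO, beside 45.3% of all genes. The median difference was -0.13 with a range of -0.83 to 0.32, and 0 passed an adjusted p (lowest 0.624, limma) or an unadjusted p under 0.05.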
